A study of Mus musculus with 3 samples.

Results

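The genes described here are 42 genes of DNA replication and S phase, taken by symbol from a gene table of 31053 entries and all present in it. They fall into 8 roles: origin loading, helicase activation, polymerases, the sliding clamp with its loader and strand maturation, nucleotide supply, chromatin copying, repair, and cyclin E with E2F. Their transcripts were counted in single cells of mouse cochlear organoids (strain C57BL/6), clusters of cells grown in 3D culture from Lgr5+ progenitors of the cochlea, the hearing organ. There were 3 libraries, with 1 library in each group. The expansion library came from passage 2 organoids on day 8 in a DMEM/F-12 medium with N2, B27, EGF at 20 ng/mL, bFGF at 10 ng/mL, IGF at 50 ng/mL, CHIR99021 at 3, Y-27632 at 10 and LPA at 2.5, these last in a unit written as um. The day 5 library came from organoids expanded in that way and then kept for 5 days in a differentiation medium, which held A83-01, RA, Shh and LY4115775 beside the growth factors bFGF and BDNF. The day 25 library had the same history, with LY4115775 withdrawn after the initial 5 days and culture continued to day 25. Single cells were freed by pipetting after 25 min in 0.125% trypsin, and living ones were taken by flow sorting on a DAPI stain. The labels do not say how many animals or cultures each library held. With 1 library a group there was no replicate check: a group and its library cannot be told apart, no test between groups was possible, and every interval below covers counting error only.

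Before a cell divides, its DNA is copied in S phase. Origins are loaded with an Mcm2 to Mcm7 helicase by Cdc6 and Cdt1, the helicase is switched on by Cdc45 and the GINS complex, and polymerases then copy both strands while the Pcna clamp holds them to the template. E2F transcription factors, freed from Rb family proteins by cyclin-dependent kinases, drive many of the genes involved, so their transcripts mark cells that are entering or passing through S phase. In the mammalian cochlea, hair cells and supporting cells are known to leave the cell cycle before birth, and Lgr5+ supporting cells of the newborn can be made to divide again in culture.

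Levels are given in CPM: the unique molecular identifiers of a gene (UMIs, 1 for each captured RNA molecule), summed over the kept cells of a class and scaled to an equal total of UMIs. Kept cells had at least 500 detected genes and at most 20% mitochondrial UMIs, which left 27996 (expansion), 13850 (day 5) and 6264 (day 25) cells. The libraries held 75301271 to 206041930 UMIs a library and a median of 4935.5 to 8585 UMIs a cell. Between 21 and 121 cell barcodes were shared by any pair of libraries. Doublet calling marked 8.50%, 4.78% and 2.65% of cells, below the 22.4%, 11.08% and 5.01% expected from the cell numbers, and called doublets were kept in the values below. The share of UMIs from ribosomal protein genes also differed between the libraries, at 32.8%, 22.8% and 15.1% in Epcam-positive cells and 39.4%, 23.9% and 18.6% in Otor-high cells, and the day 25 library was processed with a later Cell Ranger version.

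Epcam-positive cells, which had at least 1 UMI of the epithelial adhesion gene Epcam and were not Otor-high, numbered 19218, 7572 and 5264. Otor-high cells, with at least 20 Otor UMIs per 10000 and more Otor than Epcam UMIs, numbered 2628, 4926 and 378. Called doublets made up 10.8%, 3.20% and 2.91% of Epcam-positive cells and 6.13%, 8.04% and 2.65% of Otor-high cells. An Epcam UMI was found in 19.7%, 26.0% and 28.3% of Otor-high cells. The summed level of 8 epithelial markers was 1234, 1821 and 6477 CPM in Epcam-positive cells in expansion, on day 5 and on day 25, against 159.4, 199.7 and 268.2 CPM in Otor-high cells. Epcam, which set the class, is on that list and made up 750.8, 1296 and 3824 CPM of the sums in Epcam-positive cells. All 8 markers were lower in Otor-high cells in each library. The summed level of 12 cochlear mesenchyme markers went the other way, at 4294, 10329 and 7992 CPM in Otor-high cells against 1022, 1543 and 483.9 CPM in Epcam-positive cells, with Postn and Col1a1 at 0 in Otor-high cells of expansion. Otor, which set the class, is on that list and made up 3197, 8226 and 5762 CPM of the sums in Otor-high cells. The contrast of these sums thus follows in large part from the class rule. At 5 CPM or more in either class, 5 of 8, 9 of 11 and 10 of 11 listed genes were higher in Otor-high cells. Otor was among them, and 1 gene was lower in each library. Of all genes, 4.57%, 10.4% and 12.2% were higher. The summed level of 4 endothelial markers was 576 to 729 CPM in Otor-high cells against 8.08 to 48.0 CPM, but only 2 of the 4 in expansion and on day 5, and 1 of 4 on day 25, reached 5 CPM and were higher. Cdh5 in expansion and Pecam1 on day 25 were at 0 there. Otor-high cells were less separate in expansion than later. Their median Otor level was 29.1 UMIs per 10000 in expansion, 73.7 on day 5 and 50.3 on day 25, and 2684 further cells of expansion lay just under the limit, between 10 and 20 per 10000. Cells with at least 3 of 15 hair cell markers made up 0.697% of the Epcam-positive class in expansion, 4.87% on day 5 and 28.8% on day 25. They also lay outside it: of 190, 937 and 1911 such cells in all, 134, 369 and 1517 were Epcam-positive, and 56, 506 and 388 were in neither class.

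RefSeq promoter windows, from 250 bases before to 50 after the start of a gene in GRCm38.p6, were found for 35 of the 42 genes. E2F letters (TTTCCCGC, TTTGGCGC, TTTCGCGC or TTTGCCGC on either strand) stood in the windows of 14 of the 35 genes, 40.0%, against 704 of all 27025 genes with a window, 2.61%. CCAAT on either strand stood in 54.3% of the member genes and 41.1% of all genes, and the cell cycle homology letters TTTGAA or TTCGAA in 17.1% and 21.7%. The stretches upstream of Mcm5 and Mcm6, 21.4-fold and 21.7-fold lower on day 5 than in expansion in Epcam-positive cells, are set here beside that of Pola1, which holds the same kind of letters and was 4.46-fold lower. Each is given 5′ to 3′ on the strand of its gene, with E2F letters in capitals and run together where matches overlap.
Mcm5, chr8:75109339-75109508, plus strand: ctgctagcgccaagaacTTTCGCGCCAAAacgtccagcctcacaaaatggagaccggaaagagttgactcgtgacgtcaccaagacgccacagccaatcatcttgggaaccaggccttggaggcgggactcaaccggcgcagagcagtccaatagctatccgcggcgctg
Mcm6, chr1:128359706-128359875, minus strand: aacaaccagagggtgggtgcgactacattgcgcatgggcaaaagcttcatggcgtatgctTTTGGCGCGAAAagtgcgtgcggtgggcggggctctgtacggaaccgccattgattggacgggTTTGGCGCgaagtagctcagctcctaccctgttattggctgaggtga
Pola1, chrX:93632156-93632325, minus strand: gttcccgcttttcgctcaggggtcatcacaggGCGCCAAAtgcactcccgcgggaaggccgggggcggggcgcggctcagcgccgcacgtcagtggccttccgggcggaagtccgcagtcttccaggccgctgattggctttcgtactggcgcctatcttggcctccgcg

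Shorter sites of 28 bases are given for 6 further genes on which the results turn, from those with large differences between the libraries (Pclaf, Clspn, Uhrf1 and Cdc6) to those with smaller ones (Hells and Rfc3), again from RefSeq on GRCm38.p6 and on the strand of the gene, with the E2F letters in capitals.
Pclaf, chr9:65890308-65890335, plus strand: cttggagcgcGCGGGAAAgagacccatt
Clspn, chr4:126556991-126557018, plus strand: ccgcgtctggGCGCGAAAgctcgaactt
Uhrf1, chr17:56304118-56304145, plus strand: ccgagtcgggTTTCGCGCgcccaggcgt
Cdc6, chr11:98908003-98908030, plus strand: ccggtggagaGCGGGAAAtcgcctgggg
Hells, chr19:38930918-38930945, plus strand: accaccgggtTTTCCCGCgaaagagaag
Rfc3, chr5:151651201-151651228, minus strand: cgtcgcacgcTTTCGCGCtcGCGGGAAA
The Rfc3 site held 2 matches. These letters describe the sequence and do not show that a factor binds there. The other 5 genes with E2F letters were Cdt1, Mcm3, Mcm7, Lig1 and Pold1. Tk1 and Rrm2, 66.8-fold and 149.7-fold lower on day 5 in Epcam-positive cells, held none of these letters in their windows.

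The replication genes were high in expanding organoids and low in both differentiated libraries. Summed over Epcam-positive cells they stood at 2116 CPM in expansion, at 283.5 CPM on day 5 and at 238.6 CPM on day 25. In Otor-high cells it was 1821, 428.6 and 342.9 CPM. Expansion therefore stood above both later libraries in both classes, and Otor-high cells stood below Epcam-positive cells in expansion and above them on days 5 and 25. A gene was counted as higher or lower where the ratio of CPM + 1 passed 2-fold among genes with at least 5 CPM in either sum. From expansion to day 5, 40 of the 42 genes were lower and 0 higher in Epcam-positive cells, where 9.88% of 10668 genes were lower and 15.7% higher. The median log2 ratio (of CPM + 1) was -2.66 for the 42 genes and 0.14 for all genes. TMM scaling, by trimmed means, gave 13.1% of genes lower and 12.1% higher, a median of -0.07 for all genes, and again 40 of the 42 lower. All 42 reached 5 CPM in expansion but only 17 of them also on day 5, and 15 of these 17 were lower. The genes not counted as lower were Rfc3 and Pole. In Otor-high cells 39 were lower and 0 higher, where 5.09% of 10403 genes were lower and 20.7% higher, with medians of -1.99 and 0.40, and the genes not counted were Slbp, Rfc3 and Blm. Of the 27 with at least 5 CPM in both libraries, 24 were lower. TMM scaling gave 9.35% of genes lower and 12.1% higher there, and 41 of the 42 lower. Summed per class, a lower level can come from fewer cells in S phase or from less RNA in each of them, and these cannot be told apart from the sums. With ribosomal protein and mitochondrial genes left out of the totals, 41 of the 42 genes were lower on day 5 in Epcam-positive cells. The share of all genes lower under that scaling is not reported here, so this count cannot be set against it.

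**Figure D1:**
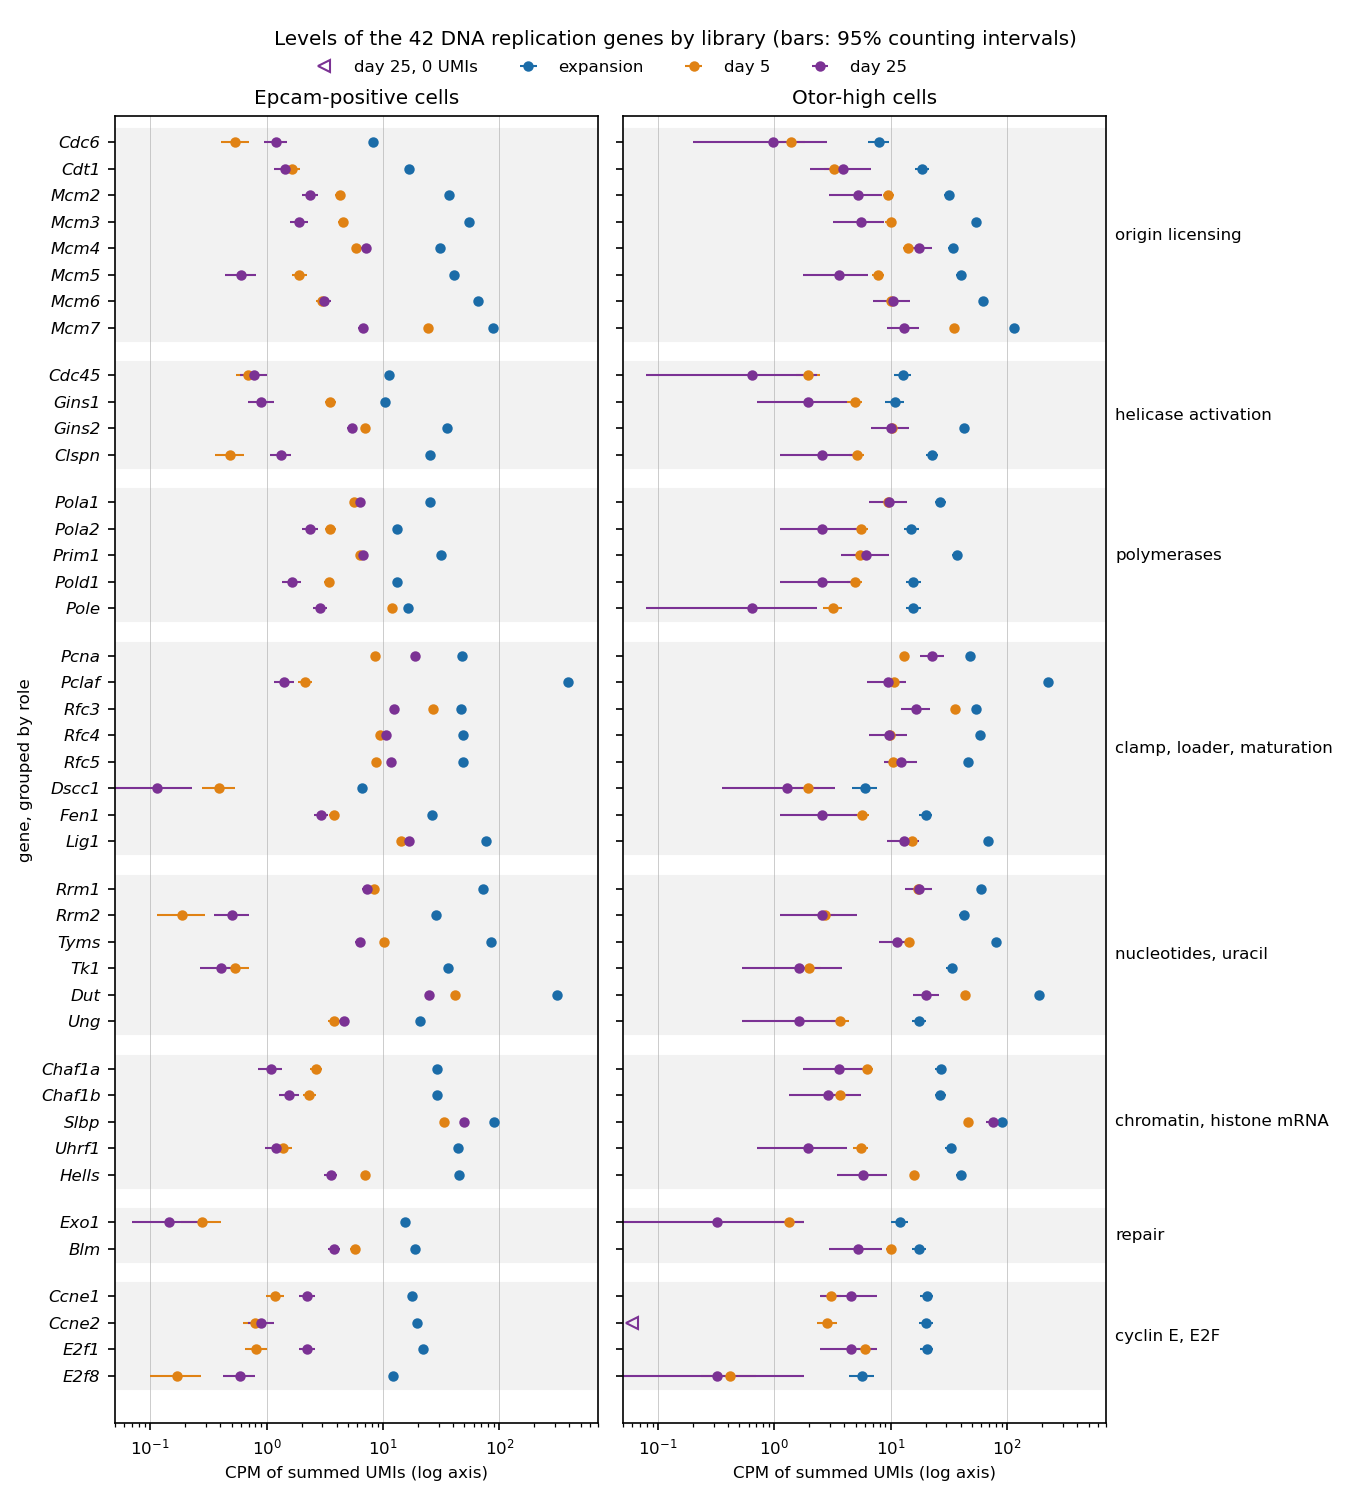
Level of each of the 42 genes in CPM (log axis) in expansion, on day 5 and on day 25, ordered by role, in Epcam-positive cells and in Otor-high cells; bars are exact Poisson 95% intervals, counting error only, and the open triangle marks 0 UMIs (Ccne2, day 25, Otor-high). The expansion points lie to the right of both later libraries for every gene in both panels, with the points of Slbp closest together.

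Of the 8 origin loading genes, all were lower on day 5 in both classes, and their summed level in Epcam-positive cells was 342.6 CPM in expansion, 46.0 CPM on day 5 and 24.5 CPM on day 25. Cdc6, which helps to load the helicase, was at 8.23, 0.538 and 1.20 CPM, and its partner Cdt1 at 16.8, 1.66 and 1.43 CPM. Among the helicase subunits themselves, Mcm6 was at 65.4, 3.01 and 3.14 CPM, 21.7-fold lower on day 5 (95% interval 19.4 to 24.5). Mcm5 was at 41.03, 1.91 and 0.606 CPM, 21.4-fold lower on day 5 (18.6 to 24.9) and 67.7-fold lower on day 25 (50.05 to 94.05). Subunits of the same ring thus differed from each other: Mcm3 at 55.4, 4.55 and 1.90 CPM was 12.2-fold lower on day 5, Mcm2 at 37.1, 4.26 and 2.37 CPM was 8.72-fold lower, and Mcm4 at 31.0, 5.84 and 7.13 CPM was 5.30-fold lower. Mcm7 was at 87.6, 24.2 and 6.68 CPM, 3.61-fold lower on day 5 (3.46 to 3.77) and a further 3.63-fold lower on day 25 than on day 5 (3.28 to 4.02). In Otor-high cells Mcm5 was at 39.9, 7.82 and 3.56 CPM, Mcm6 at 62.1, 10.03 and 10.4 CPM and Mcm4 at 34.5, 14.0 and 17.5 CPM, with day 5 folds of 5.10, 6.19 and 2.46.

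The 4 genes of helicase activation and its checkpoint were lower on day 5 in both classes, from 82.7 to 11.7 CPM in sum in Epcam-positive cells and from 88.8 to 22.2 CPM in Otor-high cells. Clspn, which encodes the checkpoint mediator claspin, had the largest difference among them, at 25.4 CPM in expansion, 0.488 CPM on day 5 and 1.33 CPM on day 25. That was 51.9-fold lower on day 5 (39.2 to 70.3). In Otor-high cells it was at 22.6, 5.08 and 2.59 CPM, 4.45-fold lower on day 5. Cdc45, which joins the helicase as it is switched on, was at 11.3, 0.698 and 0.779 CPM in Epcam-positive cells. The GINS subunits had smaller differences: Gins1 was at 10.5, 3.54 and 0.894 CPM, and Gins2 at 35.5, 6.99 and 5.42 CPM. Gins1 was 2.97-fold lower on day 5 (2.65 to 3.33).

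The polymerase and primase genes had the smallest summed difference of the 8 roles in Epcam-positive cells, 3.22-fold, from 99.98 CPM in expansion to 31.1 CPM on day 5, and 4 of 5 were lower. The exception was Pole, the catalytic subunit of polymerase epsilon. Pole was at 16.3 CPM in expansion, 12.03 CPM on day 5 and 2.90 CPM on day 25 in Epcam-positive cells, so day 5 stood near expansion and day 25 below both. It was 1.36-fold lower on day 5 (1.27 to 1.45) and 4.15-fold lower on day 25 than on day 5 (3.57 to 4.84). In Otor-high cells Pole was at 15.6, 3.18 and 0.647 CPM, with day 5 well under expansion, 4.91-fold lower (3.86 to 6.27). An exon of Pole overlaps Gm15792 on the other strand. How strand was used in counting was not stated, and whether the Pole count holds reads of Gm15792 was not tested. Pola1 and Pola2, subunits of the polymerase that starts each strand, were at 25.4, 5.68 and 6.29 CPM and at 13.2, 3.53 and 2.35 CPM in Epcam-positive cells, and Pold1, the catalytic subunit of polymerase delta, at 13.3, 3.45 and 1.66 CPM. The primase gene Prim1 was at 31.8, 6.40 and 6.78 CPM there and at 36.9, 5.48 and 6.15 CPM in Otor-high cells.

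Among the 8 genes of the clamp, its loader and strand maturation, 7 were lower on day 5 in each class, and Rfc3 was the exception in both. Pclaf, which encodes a factor bound to the clamp, was at 387 CPM in expansion, 2.15 CPM on day 5 and 1.41 CPM on day 25 in Epcam-positive cells. Its day 5 level was 179.7-fold lower (157.2 to 206.3), the largest fold of the 42 genes in that comparison. In Otor-high cells Pclaf was at 226, 10.7 and 9.38 CPM, 21.1-fold lower on day 5 (18.9 to 23.5). Both classes were high in expansion only. The clamp gene Pcna was at 48.2, 8.58 and 18.7 CPM in Epcam-positive cells and 47.9, 13.1 and 22.6 CPM in Otor-high cells, so that day 25 lay between the other libraries in both. Of the clamp loader, Rfc3 was at 47.1, 27.1 and 12.4 CPM in Epcam-positive cells, 1.74-fold lower on day 5 (1.66 to 1.82), while Rfc4 was at 49.02, 9.50 and 10.6 CPM and Rfc5 at 49.1, 8.76 and 11.7 CPM. Among the Rfc genes, Rfc3 differed least between expansion and day 5 and most between days 5 and 25. Fen1, which trims the flaps of newly made fragments, was at 26.2, 3.80 and 2.94 CPM, and Lig1, which joins them, at 76.1, 14.4 and 16.8 CPM. Dscc1, part of an alternative loader that links copying to sister cohesion, was at 6.61, 0.389 and 0.115 CPM.

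All 6 genes of nucleotide supply and uracil removal were lower on day 5 in both classes. Ribonucleotide reductase, which makes the building blocks of DNA, has a large subunit from Rrm1 and a small one from Rrm2, and these differed. Rrm1 was at 72.4, 8.35 and 7.26 CPM in Epcam-positive cells and 8.66-fold lower on day 5. Rrm2 was at 28.4, 0.189 and 0.505 CPM and 149.7-fold lower (95.8 to 248.9). In Otor-high cells Rrm2 was at 42.3, 2.71 and 2.59 CPM, 15.6-fold lower (12.5 to 19.6). The thymidine kinase gene Tk1 was at 36.0, 0.538 and 0.404 CPM in Epcam-positive cells, 66.8-fold lower on day 5 (51.2 to 89.1). The thymidylate synthase gene Tyms was at 84.02, 10.3 and 6.33 CPM and Ung, which removes uracil from DNA, at 20.9, 3.76 and 4.62 CPM. Dut, whose product keeps uracil out by breaking down dUTP, was at 316, 41.2 and 24.9 CPM in Epcam-positive cells and 186, 43.7 and 20.06 CPM in Otor-high cells.

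The 5 chromatin genes were lower on day 5 in Epcam-positive cells, and 4 of 5 in Otor-high cells. Slbp, which binds the stem-loop of histone mRNAs, had the smallest difference: it was at 90.4, 33.3 and 49.8 CPM in Epcam-positive cells and at 91.1, 46.3 and 75.1 CPM in Otor-high cells. It was 2.71-fold lower on day 5 (2.61 to 2.82) in the former and 1.97-fold lower (1.82 to 2.13) in the latter, and day 25 lay between day 5 and expansion in both. Uhrf1, which recruits the maintenance methyltransferase to newly copied DNA, was at 44.3, 1.40 and 1.21 CPM in Epcam-positive cells, 31.7-fold lower on day 5 (26.8 to 37.8). The remodeller gene Hells was at 45.01, 6.997 and 3.55 CPM. The subunits of the chromatin assembly factor CAF-1 were similar to each other, with Chaf1a at 29.3, 2.66 and 1.08 CPM and Chaf1b at 29.2, 2.33 and 1.56 CPM. Of the repair genes, the nuclease gene Exo1 was at 15.5, 0.279 and 0.144 CPM and the helicase gene Blm at 19.0, 5.71 and 3.82 CPM in Epcam-positive cells. Blm was at 17.6, 10.06 and 5.18 CPM in Otor-high cells, 1.75-fold lower on day 5 (1.47 to 2.09).

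Cyclin E and E2F genes had the largest summed difference of the 8 roles in Epcam-positive cells, from 71.4 CPM in expansion to 2.97 CPM on day 5, 24.05-fold, with 5.96 CPM on day 25. In Otor-high cells the sums were 66.5, 12.3 and 9.38 CPM, 5.39-fold lower on day 5. E2f1, an activator of replication genes, was at 22.0, 0.817 and 2.24 CPM in Epcam-positive cells and 20.5, 6.01 and 4.53 CPM in Otor-high cells. E2f8, a repressor of the same genes, was at 12.1, 0.169 and 0.591 CPM in Epcam-positive cells. The cyclin E genes Ccne1 and Ccne2, whose products switch on the kinase that opens S phase, were at 17.6, 1.19 and 2.24 CPM and at 19.7, 0.797 and 0.894 CPM there. All of them were low on day 5. In Otor-high cells of day 25, Ccne2 had 0 UMIs, at least 20.7-fold lower than in expansion against a floor of 3 counts.

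Day 25 against expansion gave nearly the same counts as day 5, and both comparisons share the expansion library. In Epcam-positive cells 41 of the 42 genes were lower and 0 higher, where 10.5% of 11180 genes were lower and 30.5% higher, and Slbp was the gene not counted, at 1.81-fold lower (1.75 to 1.88). Of the 14 with at least 5 CPM in both libraries, 13 were lower. TMM scaling gave 19.2% of genes lower and 19.1% higher, and 42 of the 42 lower. In Otor-high cells 40 were lower and 0 higher, where 7.69% of 10749 genes were lower and 36.0% higher. Slbp, at 1.21-fold lower (1.05 to 1.41), and Mcm4, at 1.97-fold lower (1.48 to 2.67), were not counted. Of the 20 with at least 5 CPM in both libraries, 18 were lower. TMM scaling gave 18.9% of genes lower and 18.5% higher, and 41 of the 42 lower. The largest folds on day 25 in Epcam-positive cells were those of Pclaf, 273.7-fold lower (224.5 to 337.2), and Exo1, 107.3-fold lower (58.3 to 224.1).

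Between day 5 and day 25 few of the genes passed 2-fold. In Epcam-positive cells 17 of the 42 had at least 5 CPM in either sum: 1 was higher, where 20.8% of 10983 genes were higher, and 3 were lower, where 6.42% were lower. The gene that was higher was Pcna, by 2.18-fold (2.00 to 2.38), and those that were lower were Pole, Mcm7 and Rfc3, the last by 2.19-fold (2.02 to 2.36). In Otor-high cells 27 were above that level: 0 were higher, where 15.7% of 10764 genes were higher, and 5 were lower, where 6.26% were lower. These were Uhrf1 (2.83-fold, 1.28 to 7.82), Hells (2.71-fold, 1.70 to 4.60), Mcm7 (2.69-fold, 1.96 to 3.78), Dut (2.18-fold, 1.69 to 2.85) and Rfc3 (2.18-fold, 1.64 to 2.94). The count of 1 higher gene in Epcam-positive cells was 0 with TMM scaling, under which 14.1% of all genes were higher and 11.3% lower. The count of 5 lower genes in Otor-high cells was then 9, with 10.0% of all genes higher and 11.3% lower.

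Within the expansion library, Otor-high and Epcam-positive cells had similar levels: 0 of the 42 genes were higher in Otor-high cells and 0 lower, where 4.57% of 10038 genes were higher and 12.4% lower. For the 42 genes the median log2 ratio was -0.06, against -0.18 for all genes. The genes with the largest shortfall in Otor-high cells were E2f8, at 5.62 CPM against 12.1 CPM, Pclaf, 1.71-fold lower, and Dut, 1.69-fold lower, while Rrm2 was 1.49-fold higher (1.36 to 1.64). Only 262 Otor-high cells of expansion were left with a limit of 50 Otor UMIs per 10000, and 6 of the genes were then lower. The share of all genes at that limit is not reported here.

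On day 5, 39 of the 42 genes had a ratio above 1 in favour of Otor-high cells. The share of all genes with such a ratio is not reported here. Among the 28 with at least 5 CPM in either class, 8 were higher in Otor-high cells, where 10.4% of 10873 genes were higher, and 1 was lower, where 11.9% were lower. The 8 were Clspn, E2f1, Pclaf, Mcm5, Uhrf1, Mcm6, Mcm4 and Hells. Some of them reached 5 CPM in Otor-high cells only: of the 16 genes with at least 5 CPM in both classes, 2 were higher (Mcm4 and Hells) and 0 lower. That is near the 10.4% of all genes with at least 5 CPM in either class. The share of all genes with 5 CPM in both was not computed. Clspn was at 5.08 CPM in Otor-high cells and 0.488 CPM in Epcam-positive cells, 10.4-fold higher (7.56 to 14.6). E2f1 was at 6.01 CPM against 0.817 CPM, 7.35-fold higher (5.67 to 9.60), and Pclaf at 10.7 CPM against 2.15 CPM, 4.98-fold higher (4.21 to 5.91). Rrm2, too low in both classes to be counted, was at 2.71 CPM against 0.189 CPM. Lig1, Dut, Rfc4 and Ung were near equal, at ratios of 0.981 to 1.06. Pole was the gene that was lower, at 3.18 CPM in Otor-high cells and 12.03 CPM in Epcam-positive cells, 3.78-fold (3.12 to 4.62). The median log2 ratio of the 42 genes was 0.66, against 0.07 for all genes.

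On day 25, with fewer Otor-high cells, 31 of the 42 genes had a ratio above 1 in favour of Otor-high cells and 11 a ratio below 1. Their median log2 ratio was 0.58, against -0.03 for all genes. Of the 20 genes with at least 5 CPM in either class, 5 were higher in Otor-high cells, where 12.2% of 11369 genes were higher, and 0 lower, where 16.2% were lower. They were Pclaf (6.64-fold, 4.23 to 10.1), Mcm6 (3.29-fold, 2.20 to 4.79), Mcm3 (2.89-fold, 1.63 to 4.80), Mcm4 (2.45-fold, 1.82 to 3.25) and Rrm1 (2.41-fold, 1.78 to 3.19). Of the 14 genes with at least 5 CPM in both classes, 2 were higher (Mcm4 and Rrm1) and 0 lower. That is again near the 12.2% of all genes, which had at least 5 CPM in either class and not in both. Without cells holding at least 4 UMIs of mitotic genes, described next, the number of genes higher in Otor-high cells was 4 on day 5 and 2 on day 25. The shares of all genes for that setting are not reported here, so these counts cannot be set against them.

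**Figure D2:**
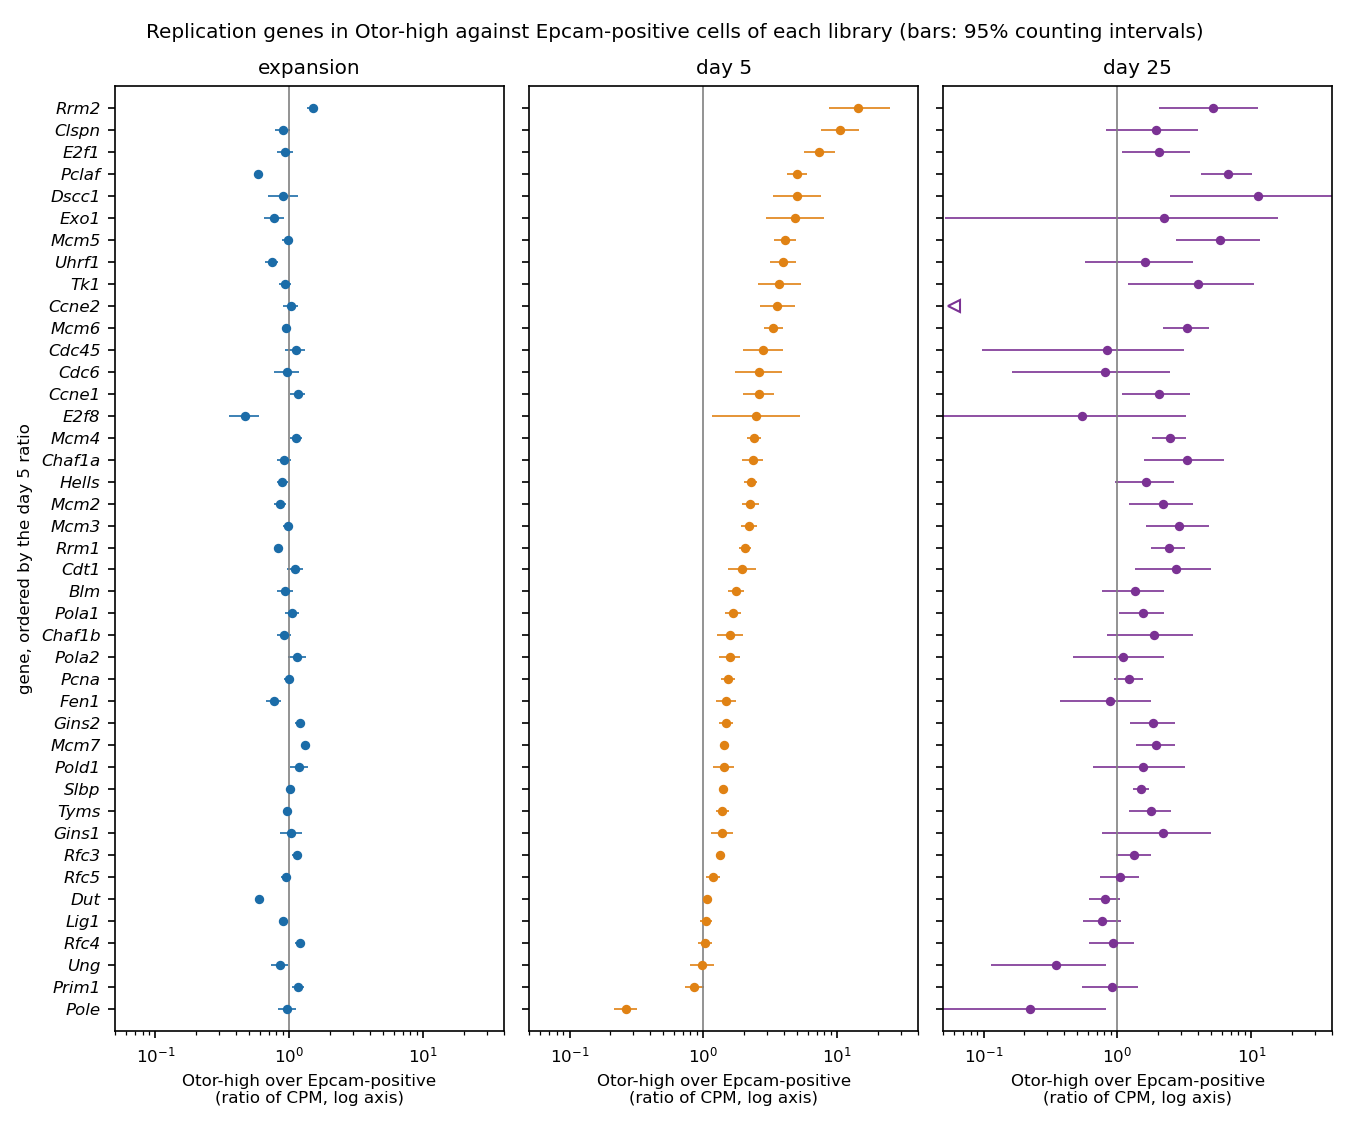
Ratio of the CPM of each gene in Otor-high cells to that in Epcam-positive cells of the same library (log axis), for expansion, day 5 and day 25, with the genes in the order of the day 5 ratio; bars are exact 95% intervals for counting error and the triangle marks 0 UMIs (Ccne2, day 25). Expansion points lie near 1, and on day 5 Rrm2, Clspn and E2f1 lie farthest above 1 and Pole farthest below.

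To see how the transcripts were spread over cells, each cell with at least 2000 UMIs was thinned to 2000, and the UMIs of the 42 genes were added up in it. A cell with at least 10 was called rich. In expansion 1455 of 18141 Epcam-positive cells were rich, 8.02% (exact Clopper-Pearson 95% interval 7.63 to 8.43), and 126 of 2475 Otor-high cells, 5.09% (4.26 to 6.03). On day 5 there were 0 rich cells among 7010 Epcam-positive cells, which allows a share of up to 0.0428% by the limit of 3 counts used here for a count of 0 (the upper end of the exact interval was 0.0526%), and 23 among 4492 Otor-high cells, 0.512% (0.325 to 0.767). On day 25 there was 1 rich cell in each class, among 5010 and 372 cells. Epcam-positive cells with hair cell markers had 2 rich cells of 132 in expansion, 1.52% (0.184 to 5.37), 0 of 306 on day 5 and 0 of 1429 on day 25. The counts of 0 allow up to 0.980% and 0.210% by the same limit (upper ends of the exact intervals 1.20% and 0.258%). Hair cells are known not to divide, but these cells were picked by markers alone. At least 4 UMIs of mitotic genes were found in 9.85% of them in expansion, 0% on day 5 and 0.140% on day 25. Thinning left out 1077, 562 and 254 Epcam-positive cells and 153, 434 and 6 Otor-high cells as too shallow. Without thinning, cells with at least 10 of these UMIs were 54.0%, 10.8% and 4.98% of Epcam-positive cells and 29.6%, 4.22% and 2.12% of Otor-high cells, at median depths of 6264.5, 6410 and 9308.5 UMIs and 3866.5, 6162.5 and 7688.5 UMIs.

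The spread on day 5 differed between the classes. The mean was 0.602 UMIs of the 42 genes per 2000 in Epcam-positive cells and 0.801 in Otor-high cells, and 55.4% and 51.0% of cells had 0. The highest cell had 8 in the former and 22 in the latter, and the variance over the mean was 1.08 and 2.38. In expansion the means were 4.07 and 3.51, with 10.7% and 8.97% of cells at 0 and variance over mean of 2.91 and 2.45. On day 25 the variance over the mean was 1.11 and 1.99. In Epcam-positive cells of days 5 and 25 this ratio was thus close to 1, the value of independent counts, and in Otor-high cells a few cells held many of these UMIs.

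**Figure D3:**
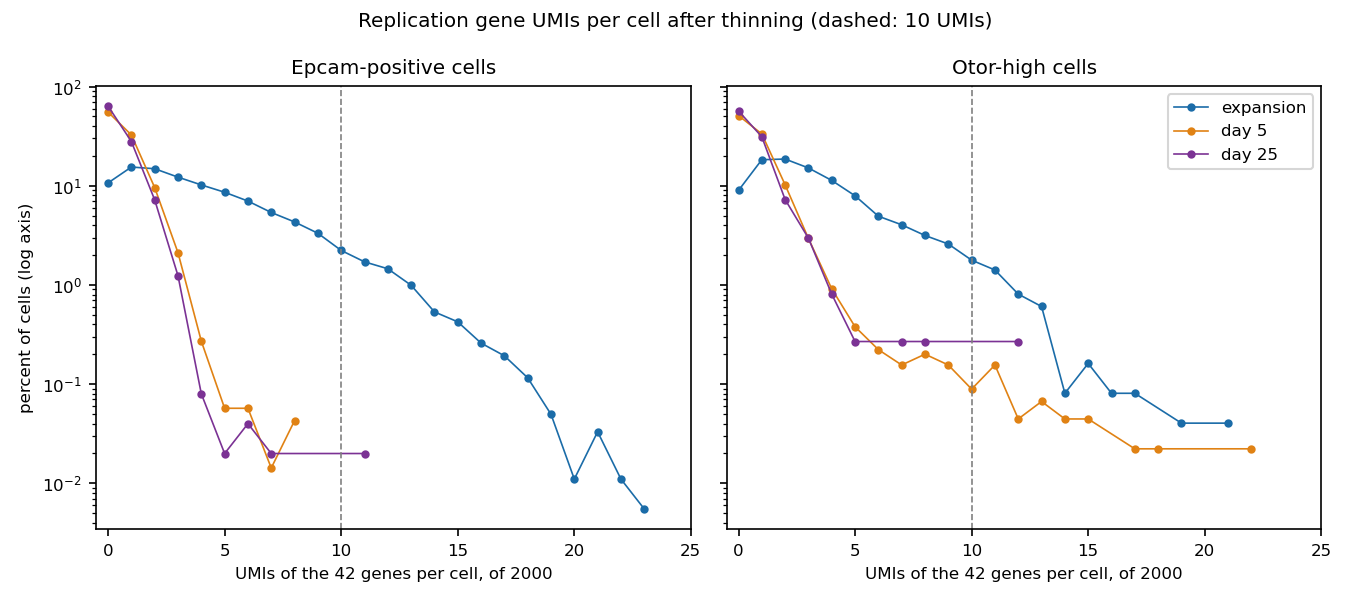
Percent of cells (log axis) against the number of UMIs of the 42 genes in a cell thinned to 2000 UMIs, for expansion, day 5 and day 25 in Epcam-positive and Otor-high cells; the dashed line marks 10 UMIs. The expansion curves reach 23 and 21 UMIs, and on day 5 the Epcam-positive curve ends at 8 and the Otor-high curve at 22.

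Mitotic transcripts moved with the replication genes. On a list of 40 mitotic genes that holds none of the 42, 49.1% of the thinned Epcam-positive cells had at least 4 UMIs in expansion, 0.214% (15 cells) on day 5 and 0.240% (12 cells) on day 25. In Otor-high cells it was 40.2%, 1.40% (63 cells) and 1.08% (4 cells). In Epcam-positive cells of expansion the summed level of the replication genes was 1024 CPM in cells with 0 mitotic UMIs, 1709.5 CPM with 1 to 3 and 2586 CPM with at least 4. The 63 Otor-high cells of day 5 with at least 4 mitotic UMIs held 362 of 3597 UMIs of the replication genes, 10.1%, and 48 of 70 Pclaf UMIs. Their summed level was 2873 CPM, against 336.2 CPM in the cells with 0. Without those cells the replication genes stood at 365.2 CPM in Otor-high cells, and at 298.6 CPM in Epcam-positive cells treated alike.

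The genes differed in how far they followed mitotic transcripts within expansion. In Epcam-positive cells Pclaf was at 69.7 CPM with 0 mitotic UMIs, 202 CPM with 1 to 3 and 492 CPM with at least 4, a ratio of 7.07 between the last and the first (6.39 to 7.84). Tk1 was at 8.14, 20.5 and 55.4 CPM, a ratio of 6.80 (5.06 to 9.36), and E2f8 at 2.65, 8.11 and 14.8 CPM, a ratio of 5.57 (3.31 to 10.1). These were high in cells with mitotic transcripts. Mcm6 was at 46.7, 64.1 and 67.0 CPM, a ratio of 1.43 (1.25 to 1.65), Cdc6 had a ratio of 1.18 (0.806 to 1.77), and Ung, at 18.9, 24.9 and 18.5 CPM, a ratio of 0.979 (0.785 to 1.23). Ung was highest in the middle group. In Otor-high cells the ratio was 6.63 for Pclaf (4.86 to 9.24), 0.814 for Mcm6 (0.584 to 1.14) and 0.419 for Ung (0.222 to 0.786).

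**Figure D4:**
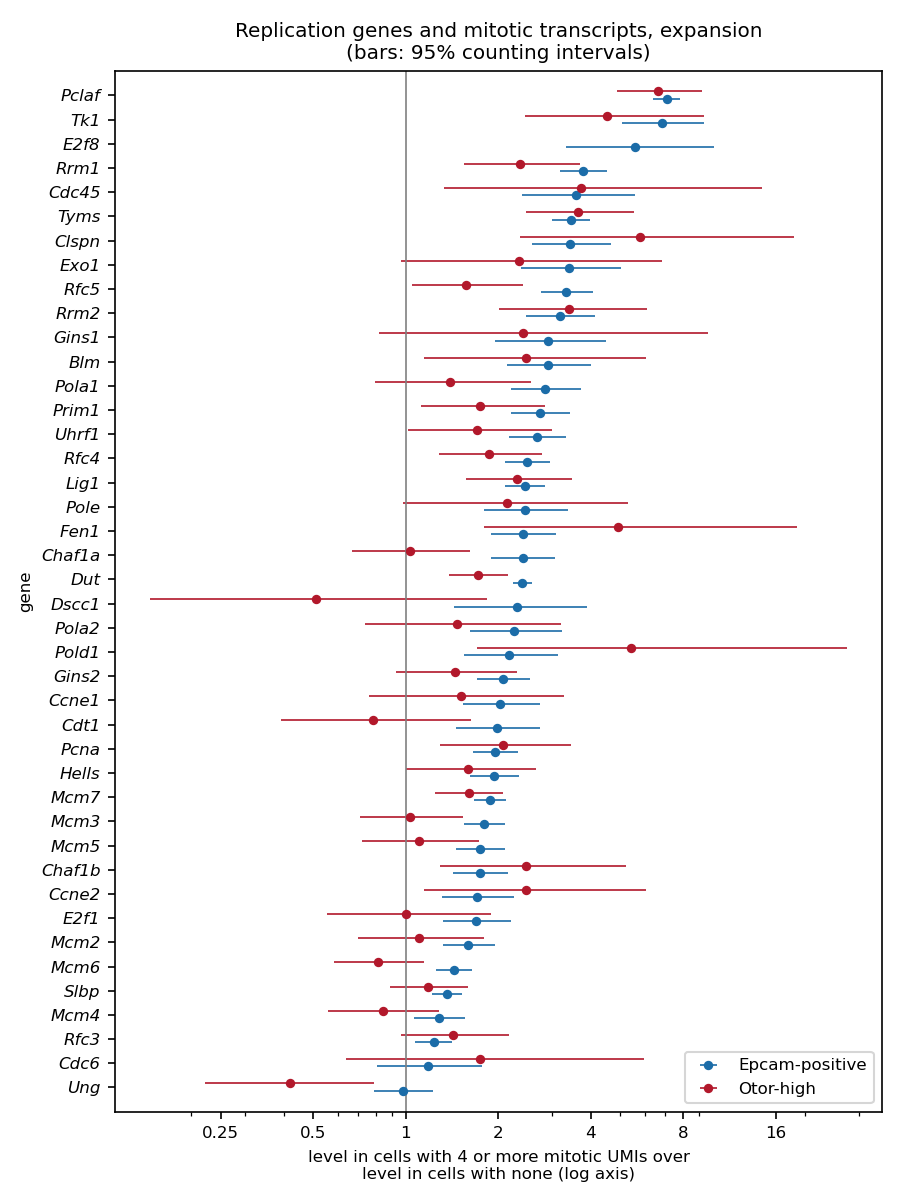
Ratio of the CPM of each gene in expansion cells with at least 4 mitotic UMIs of 2000 to that in cells with 0 (log axis), in Epcam-positive cells (blue) and Otor-high cells (red); bars are exact 95% intervals for counting error, and E2f8 has no red point because cells with 0 mitotic UMIs had 0 E2f8 UMIs. Pclaf, Tk1 and E2f8 lead in Epcam-positive cells, and Cdc6 and Ung lie near 1.

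A different order came from the replication genes themselves. When the top 10% of Epcam-positive cells of expansion by the sum of the other 41 genes was set against the rest, Ccne2 was at 70.5 CPM against 14.7 CPM, a ratio of 4.81 (4.13 to 5.58). Cdc6 was at 22.9 CPM against 5.83 CPM, a ratio of 3.92 (3.03 to 5.06), and Rrm2 had a ratio of 3.84 (3.37 to 4.37). The lowest ratios were those of Slbp, 1.83 (1.66 to 2.01), and Pola1, 1.74 (1.46 to 2.07). Ccne2 and Cdc6 thus had high ratios here and low ones, 1.71 and 1.18, against mitotic transcripts. In Otor-high cells Ccne2 had a ratio of 6.22 (4.03 to 9.52). Of the 1455 rich Epcam-positive cells, 978 (67.2%) also had at least 4 mitotic UMIs.

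Within the Epcam-positive class, cells with at least 3 hair cell markers were set beside the other cells, a comparison chosen after its values had been seen. In expansion, where there were 134 such cells (0.697% of the class), all 42 ratios were below 1, and 26 of the genes were lower and 0 higher, where 11.6% of 10645 genes were lower and 14.4% higher. Of the 38 with at least 5 CPM in both, 22 were lower. Pclaf was at 119.3 CPM in them and 388.6 CPM in the others, 3.26-fold lower (2.75 to 3.90). On day 5, with 369 such cells, 19 genes had at least 5 CPM in either: 2 were higher, where 17.7% of 10926 genes were higher, and 4 lower, where 15.8% were lower. The higher ones were the cyclin E genes, which reached 5 CPM in hair-marker cells only. Of the 12 genes with at least 5 CPM in both, 0 were higher and 1 was lower (Rfc3). Ccne2 was at 5.08 CPM in hair-marker cells and 0.586 CPM in the others, 8.68-fold higher (5.14 to 14.2, from 24 and 56 UMIs), and Ccne1 at 5.93 CPM against 0.952 CPM, 6.23-fold higher (3.93 to 9.61). Pole, Pola1, Rfc3 and Gins2 were the lower ones. Pole was at 3.60 CPM against 12.4 CPM, 3.46-fold lower (2.15 to 5.95).

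On day 25, with 1517 such cells, 18 genes were above that level: 5 were higher, where 20.4% of 11218 genes were higher, and 3 lower, where 18.5% were lower. Of the 12 with at least 5 CPM in both, 2 were higher (Lig1 and Dut) and 2 lower (Rfc3 and Rfc4). These counts lie near the 20.4% and 18.5% of all genes, which had at least 5 CPM in either and not in both. The summed level was 263.1 CPM in hair-marker cells and 229.5 CPM in the others. E2f1 was at 6.59 CPM against 0.614 CPM, 10.7-fold higher (7.19 to 16.5, from 124 and 31 UMIs). Ccne1 was at 5.85 CPM against 0.891 CPM, 6.56-fold higher (4.60 to 9.50). Both were as low as 1 CPM or less in the other cells. Hells was at 7.44 CPM against 2.10 CPM, Lig1 at 31.4 CPM against 11.3 CPM and Dut at 41.3 CPM against 18.8 CPM. The genes that were lower were Ung, at 2.07 CPM against 5.56 CPM, Rfc4, at 5.31 CPM against 12.5 CPM, and Rfc3, at 6.43 CPM against 14.6 CPM. Slbp, Pcna and Mcm7 were near equal. Cdc6, under 5 CPM in both, was at 3.14 CPM against 0.475 CPM, 6.60-fold higher (4.04 to 11.1). None of the 1429 hair-marker cells of day 25 that could be thinned was rich. With called doublets left out, the log2 ratio of CPM + 1 on day 25 was 2.28 for E2f1 and 1.88 for Ccne1, and with at least 5 hair markers asked for, 2.22 and 1.80.

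**Figure D5:**
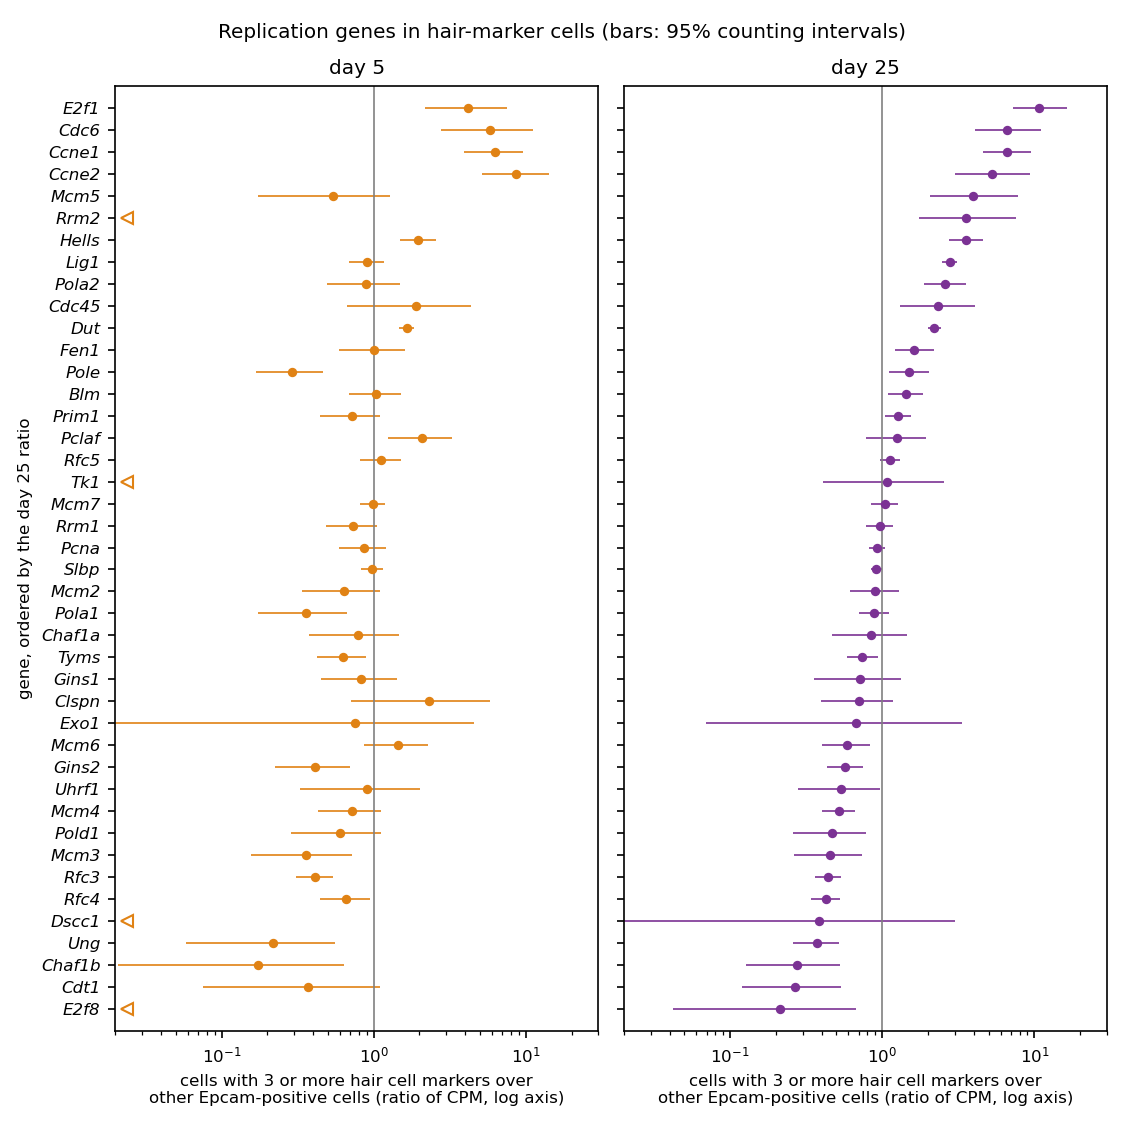
Ratio of the CPM of each gene in Epcam-positive cells with at least 3 hair cell markers to that in the other Epcam-positive cells (log axis), on day 5 (orange) and day 25 (purple), in the order of the day 25 ratio; bars are exact 95% intervals for counting error, some running past the axis, and triangles at the left mark 0 UMIs in hair-marker cells (Tk1, Rrm2, Dscc1 and E2f8 on day 5). E2f1, Cdc6, Ccne1 and Ccne2 lie farthest above 1 on day 25 and above 1 on day 5.

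Other genes of the cell cycle were counted from lists that hold none of the 42. Of 31 further replisome genes with at least 5 CPM in either sum, 15 were lower on day 5 than in expansion in Epcam-positive cells and 0 higher. Gmnn, the inhibitor of Cdt1, was at 90.8 CPM in expansion and 6.99 CPM on day 5, and Mcm10, which helps to start the helicase, at 11.3 and 0.568 CPM. Of 25 further S phase chromatin and repair genes 20 were lower and 0 higher, among them the chromatin regulator gene Atad2 at 64.3 and 5.70 CPM and the histone chaperone gene Asf1b at 17.9 and 0.967 CPM. All 40 mitotic genes were lower, among them Ube2c at 332 and 2.58 CPM, the topoisomerase gene Top2a at 249.4 and 2.06 CPM and the proliferation marker Mki67 at 132 and 1.07 CPM. The medians of the log2 ratio were -0.91, -1.58 and -4.25 for these lists, so the further replisome genes differed least and the mitotic genes most. In Otor-high cells 12 of 31, 15 of 22 and 39 of 39 genes were lower. Of all genes, 9.88% were lower in Epcam-positive cells and 5.09% in Otor-high cells.

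Of 25 genes of the E2F, Rb and cyclin-dependent kinase system, 12 were lower on day 5 and 3 higher in Epcam-positive cells, with a median log2 ratio of -0.86, and in Otor-high cells 8 of 26 were lower and 2 higher. Of all genes, 9.88% were lower and 15.7% higher in Epcam-positive cells, and 5.09% and 20.7% in Otor-high cells. The counts of higher genes on this list thus do not exceed the shares of all genes. The S phase cyclin gene Ccna2 was at 55.6 CPM in expansion and 0.389 CPM on day 5, and the repressor gene E2f7 at 10.4 and 0.0897 CPM. The higher genes were the kinase inhibitor genes Cdkn1c, at 171 and 800.1 CPM, and Cdkn1b, at 40.3 and 115.6 CPM, and the Rb family gene Rbl2, at 6.62 and 14.4 CPM. From day 5 to day 25, Cdkn1c was the 1 gene of 19 that was lower, at 96.9 CPM on day 25, and 5 were higher: Rb1, Rbl2, Ccnd1, Cdkn1a and Cdkn2b. Of all genes 6.42% were lower and 20.8% higher, so these counts lie near the background. Cdkn1a, another inhibitor gene, had a level of 125 CPM on day 5 that compared with 564 CPM on day 25, and Rb1 at 19.3 and 50.4 CPM. The D-type cyclin gene Ccnd2 differed between the classes in every library, at 414, 316 and 346 CPM in Otor-high cells and 79.6, 7.70 and 12.8 CPM in Epcam-positive cells. Of 71 listed replication-dependent and other histone genes, 21 had at least 5 CPM in either sum of expansion and day 5 in Epcam-positive cells. On day 5, 11 of these histone genes were lower and 1 was higher, where 9.88% and 15.7% of all genes were. Their mRNAs mostly lack a poly(A) tail, which 3′ libraries of this kind capture by, so these counts are partial.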

How the data were processed

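The authors deposited 1 matrix of raw UMI counts per library, which the file headers trace to Cell Ranger 3.0.1 (expansion and day 5) and 3.1.0 (day 25). Both GRCm38 and hg38 are listed as builds in the submitters' processing notes; the gene identifiers are those of mouse. How strand was used in counting, and the sequencing depth in reads, are not given in the sources used here. An exon of 14 of the 42 genes overlaps a gene on the other strand and Mcm7 overlaps microRNA genes on its own strand (positions from GENCODE on GRCm38), so their counts may include neighbours.

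The members and gene lists were chosen with earlier results of these data known. All 42 members are described by role, by a rule that names every one; of each pathway list genes with the largest differences are named (some that the rule picks are not reported here), as are Mki67, Epcam and Otor as checks. UMIs were summed per library and class, and CPM was computed over all UMIs of the summed cells, with exact Poisson 95% intervals and exact conditional binomial intervals for ratios (Python 3.11.15, numpy 2.4.6, scipy 1.17.1, pandas 2.3.3). A gene counted as higher or lower past a 2-fold ratio of CPM + 1, among genes with at least 5 CPM in either sum; mitochondrial genes were left out. For a count of 0, a floor of 3 counts was used only for folds given as at least and for limits of levels and shares. Calls and log2 ratios used the 0 itself in CPM + 1. With 1 library a group there was no test and no p-value.

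Doublets were called with Scrublet in scanpy 1.11.5 and removed in an alternative only. Cells under 500 genes (935, 550 and 120) and then over 20% mitochondrial UMIs (167, 52 and 229) were left out. Cells were thinned to 2000 UMIs with a fixed seed for counts per cell. Alternatives covered scaling (TMM in edgeR 4.0.16 under R 4.3.3, used for scaling factors only, and median of ratios), the pseudocount, the CPM minimum, class limits and thinning depth. On simulated counts, all 67 genes changed 3-fold and all 66 changed 5-fold were called in each comparison between libraries. Of 67 genes changed 1.5-fold, 0 were called. Of unchanged genes, 0 were called except in Otor-high cells of day 25. These exceptions were 13 of 10202 against day 5 and 11 of 10044 against expansion. The simulated folds lie above or below the fixed 2-fold cut, so the calls largely follow from it. They were not reported by level. The replication genes had medians of 3.65 CPM on day 5 and 2.36 CPM on day 25 in Epcam-positive cells. The simulation therefore does not show how calls behave at such low levels. With 1 library a group, variation between libraries was not tested. The hair-marker comparison, added after the data were seen, was not simulated.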

Additional observations from a re-analysis of the deposited data

Results flagged for a closer look

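The kept cells in neither class (6150 in expansion, 1352 on day 5 and 622 on day 25) were outside the comparisons of the report, and the replication genes were measured in them too. Cells with at least 3 hair cell markers were 0.911% of them in expansion, 37.4% on day 5 and 62.4% on day 25, and the part of these cells in the level was not tested. Their summed level there was 1992 CPM in expansion, 448.2 CPM on day 5 and 298.6 CPM on day 25, above the levels of 0.133, 0.814 and 1.04 CPM that a count of 0 allows. Expansion was again the highest library, and days 5 and 25 lay nearer to the Otor-high sums than to the Epcam-positive sums on day 5 and between them on day 25.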

How the results depend on the processing

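Between expansion and the later libraries, the count of lower genes lay between 28 and 41 (day 5) and 28 and 42 (day 25) in Epcam-positive cells and between 28 and 41 in Otor-high cells, over all alternatives; 28 came from asking for 20 CPM, which tests fewer of the genes. Scaling by TMM multiplies every gene of a sum by 1 factor, so the ratios of members and of all genes shift alike, and the count of lower members, close to 42, has little room to move. The share of genes higher and lower on day 5 in Epcam-positive cells was 12.1% and 13.1% (median log2 ratio -0.07) in place of 15.7% and 9.88%, and on day 25 against expansion 19.1% and 19.2% in place of 30.5% and 10.5%. In Otor-high cells it was 18.5% and 18.9% on day 25 against expansion.

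Apart from the shares given for TMM, the shares of all genes under these alternatives are not reported here. The counts under them therefore cannot be set against all genes. The small counts moved most. The 1 gene higher on day 25 than on day 5 in Epcam-positive cells became 0 with TMM, median of ratios, totals without ribosomal protein and mitochondrial genes, a pseudocount of 5 CPM, a minimum of 20 CPM and means over cells. The 5 genes lower in Otor-high cells became 9 (TMM), 8 (totals without ribosomal protein and mitochondrial genes, and a minimum of 1 CPM), 1 (pseudocount of 5) and 3 (minimum of 20). Of Otor-high against Epcam-positive cells, the 0 lower genes in expansion became 1 with doublets left out, Epcam-positive from 2 UMIs, or no Epcam UMI allowed in Otor-high cells, and 6 with Otor-high from 50 per 10000. The 8 higher genes on day 5 became 1 (pseudocount of 5), 0 (minimum of 20), 4 (means over cells) and 4 (without cells of 4 or more mitotic UMIs), and the 1 lower gene became 0 (minimum of 20). The 5 higher genes on day 25 became 1 (pseudocount of 5), 0 (minimum of 20), 10 (minimum of 1) and 2 (without mitotic cells), and the 0 lower became 1 (totals without ribosomal protein genes; without hair-marker cells) and 2 (minimum of 1).

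For hair-marker against other Epcam-positive cells, day 5 gave 0 higher and 2 lower (pseudocount of 5), 0 and 1 (minimum of 20), 4 and 7 (minimum of 1), and 1 higher with Epcam-positive from 2 UMIs or Otor-high from 50. Day 25 gave 2 higher and 0 lower with a pseudocount of 5 and with a minimum of 20. The shares of all genes for these settings are not reported here either.

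The share of rich cells depends on its limit. From 5 UMIs it was 36.6% (expansion, Epcam-positive), 27.7% (expansion, Otor-high), 0.171% and 1.63% (day 5). From 20 it was 0.0606%, 0.0404%, 0.0223% (day 5, Otor-high) and 0 in both classes on day 25. Thinned to 4000 UMIs with a limit of 20, it was 6.13% and 4.11% in expansion, 0.303% in Otor-high cells of day 5 and 0 in Epcam-positive cells of day 25. With doublets left out it was 8.44% in Epcam-positive cells of expansion.

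With Otor-high from 50 per 10000, 3 log2 ratios changed sign in Otor-high cells: Gins1 and Dscc1 on day 5 against expansion, at 0.43 and 0.48, and Dscc1 on day 25 against expansion, at 0.14. Only 262 cells of expansion are left there. The cause of these changes was not tested. No paired analysis was possible because each group holds 1 library and no comparison rests on a test. Leaving out a replicate was not possible either, and the number of Otor-high cells on day 25 (378) limits the lowest levels.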
